A study of Mus musculus with 4 samples.

Results

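Chromatin accessibility was followed at 9 immediate early transcription factor genes, Fos, Fosb, Jun, Junb, Jund, Egr1, Ier2, Atf3 and Myc, in mouse pachytene spermatocytes, the male germ cells in the long prophase of meiosis. The genes were taken by symbol from a GRCm38.p6 annotation, in which all 9 were found among 49943 genes on chromosomes 1 to 19, X and Y, of which 21887 were protein-coding. Peaks were taken within 1 kb and within 10 kb of either gene end. The cells had been isolated from testis and kept for 12 h with 2.5 µM BMH-21, which inhibits RNA polymerase I, or with the solvent DMSO (mock). ATAC-seq, in which a transposase cuts accessible DNA, was run on about 10000 cells per library, with 2 libraries per treatment. The submitters call the libraries biological replicates, but strain, age and separate animals are not stated, so the spread between libraries may be technical. An RNA kit appears in the series' design text and a tagmentation kit in the extraction protocol.

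Immediate early genes are transcribed within minutes of a growth factor, cytokine or stress signal from factors already present in the cell, among them SRF with its ETS cofactors and CREB. FOS and JUN family proteins pair through leucine zippers to form AP-1, and ATF3 pairs with JUN proteins, whereas EGR1 binds GC-rich DNA through zinc fingers and MYC binds E-boxes with MAX. RNA polymerase I, the target of BMH-21, transcribes ribosomal RNA genes, and MYC is known to promote ribosome production. In the testis, loss of Jund is known to impair male fertility in mice.

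The promoter sequences below were each covered, at least in part, by a peak in both mock lists. They were either fully covered in both BMH-21 lists (Fos, Jun, Junb) or uncovered in BMH-21 replicate 1 (Atf3). The Fosb window is not shown. It was covered over 243 and 245 bases in mock against 240 and 209 in BMH-21 libraries. The sequences are the 250 bases before the transcription start, 5′ to 3′, from RefSeq on GRCm38.p6. Capitals mark the CRE half-site TGACG on either strand, the CCAAT box and the TATA box TATAAA.
Fos (chr12:85473640-85473889, plus strand): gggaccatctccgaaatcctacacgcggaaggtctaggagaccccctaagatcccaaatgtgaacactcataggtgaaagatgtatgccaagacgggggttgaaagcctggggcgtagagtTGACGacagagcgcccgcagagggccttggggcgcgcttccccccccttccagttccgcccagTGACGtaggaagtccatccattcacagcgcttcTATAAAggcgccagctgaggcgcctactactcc
Jun (chr4:95052223-95052472, minus strand): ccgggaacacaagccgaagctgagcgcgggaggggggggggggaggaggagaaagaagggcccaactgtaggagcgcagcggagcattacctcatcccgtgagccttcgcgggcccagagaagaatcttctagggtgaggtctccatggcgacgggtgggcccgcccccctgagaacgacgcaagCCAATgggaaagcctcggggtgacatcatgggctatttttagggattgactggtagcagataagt
Junb (chr8:84978749-84978998, minus strand): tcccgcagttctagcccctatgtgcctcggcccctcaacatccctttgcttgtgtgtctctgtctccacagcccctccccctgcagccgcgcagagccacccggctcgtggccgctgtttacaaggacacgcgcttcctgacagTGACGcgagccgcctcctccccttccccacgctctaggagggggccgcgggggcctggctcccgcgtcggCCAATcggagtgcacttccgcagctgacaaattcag
Atf3 (chr1:191183334-191183583, minus strand): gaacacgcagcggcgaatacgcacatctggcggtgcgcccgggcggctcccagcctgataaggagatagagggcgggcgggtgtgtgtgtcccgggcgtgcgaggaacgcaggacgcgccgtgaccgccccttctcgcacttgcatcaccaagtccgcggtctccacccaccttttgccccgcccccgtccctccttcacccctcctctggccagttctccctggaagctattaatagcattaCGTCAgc
Promoter entries were matched for 6 genes (the 4 above, Fosb and Jund). The Fos window held 2 CRE half-sites, at positions -129 and -66 from the start, and TATAAA at position -33. A CRE half-site was in 4 of the 6 windows (Fos, Fosb, Junb and Atf3), against 17.8% of all 32851 promoter windows searched on both strands. In Atf3 it lay at position -7, next to the start. CCAAT was in the windows of Jun and Junb, against 33.8% of all windows, and TATAAA in that of Fos alone among the 6, against 12.4%. The GC box GGGCGG was in 4 of the 6 (Fos, Fosb, Jun and Atf3), against 32.7%, and the EGR site GCGNGGGCG in that of Fosb, where it overlaps a GC box, against 4.7%. Neither the full CRE TGACGTCA, which contains the half-site on both strands, nor the AP-1 site TGANTCA, the E-box CACGTG or the CArG box was found in the 6 windows, and 1.55%, 6.75%, 6.02% and 1.47% of all windows held them. The shares are over all windows, not limited to protein-coding genes and not matched for GC content. A match describes letters in a window and not a bound site. Sites beyond these 250 bases, or with letters other than those searched, were not looked for, so an absent match does not mean an absent site.

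The lists differed in length. There were 109230 and 117905 peaks in the mock lists against 51234 and 55459 in those of BMH-21, and the smallest −log10 q was 2.01 to 2.09 in all 4. Fragment depth cannot be read directly from peak lists. The genome-wide background that the caller used, recovered from the lists, was 4.11 to 4.54 fragments in the 4 libraries. A peak absent from a list fell below the authors' threshold in that library, which is not a measure of closed chromatin. In bulk libraries, fewer cells with an open site and less opening per cell cannot be told apart. Of 16 pachytene markers, 15 had a gene-end peak in every library, whereas Ccna1 had none.

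Both mock lists held a gene-end peak, that is one within 1 kb of either end, for all 9 genes, and both BMH-21 lists held one for 7: Fos, Fosb, Jun, Junb, Jund, Egr1 and Atf3. Ier2, which encodes a nuclear protein, and Myc were mock-only: both mock lists held a gene-end peak and no BMH-21 list did. No member had the reverse pattern. Over protein-coding genes held by both mock lists in the same way, 84.3% were also held by both BMH-21 lists and 11.5% were mock-only. Of those held by both BMH-21 lists, the BMH-21-only share was 1.35%. Ier2 and Myc are 22.2% of the 9 members, a count too small to set apart from that share. These classes depended on how the lists were matched. When each list was cut to its 51234 peaks of highest fold, 2 members had a gene-end peak in all libraries (Fos and Atf3), 1 was mock-only (Ier2) of 3 held by both mock libraries, and 4 were BMH-21-only (Fosb, Jun, Junb and Egr1) of 7 held by both BMH-21 libraries, while the shares over protein-coding genes were 6.28% and 13%. In the equal lists by −log10 q, a cut chosen after seeing the data, 6 were in all, 2 of 8 were mock-only (7.02% over genes) and 1 of 7, Fosb, was BMH-21-only (3.85%).

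**Figure D1:**
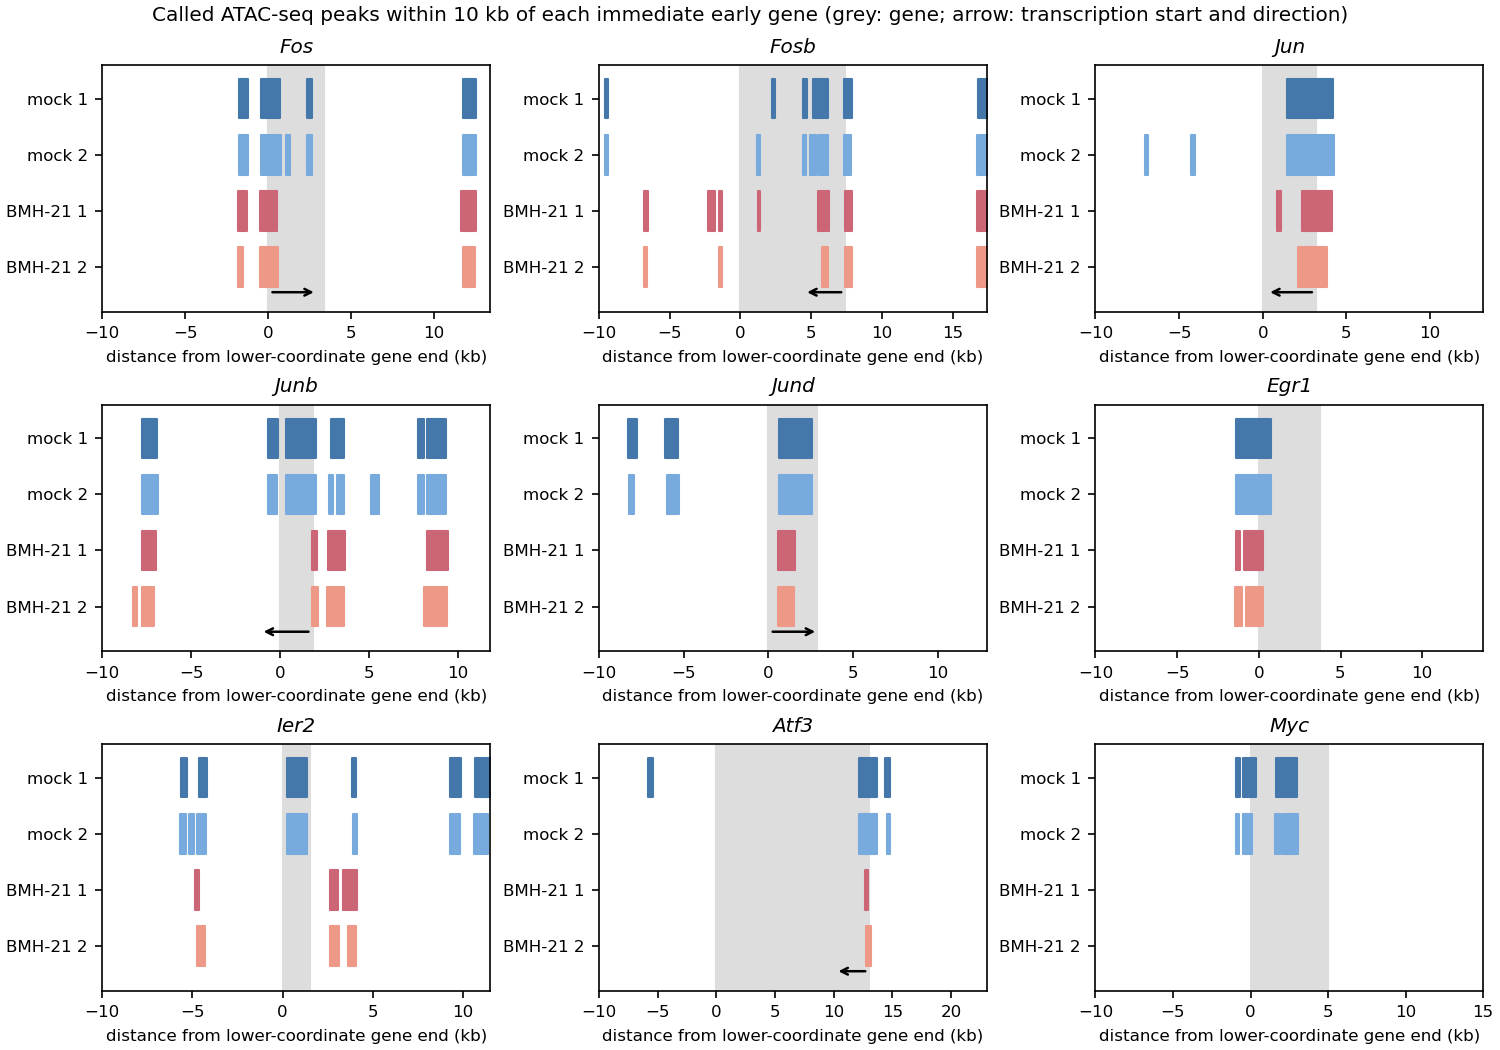
Each panel shows 1 gene in grey and, in 4 rows, the called peaks of mock 1, mock 2, BMH-21 1 and BMH-21 2 by distance in kb from the gene's lower-coordinate end; arrows mark transcription start and direction where the promoter table gives them. Myc has no peak in the BMH-21 rows, Ier2 lacks the peak inside the gene there, and the peaks at Jun, Junb, Jund, Egr1 and Atf3 cover less of the gene.

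Among the FOS family genes, Fos (chr12:85473890-85477274) encodes an AP-1 subunit that pairs with JUN proteins. Its promoter peak measured 1162 and 1185 bp in mock against 1022 and 1086 bp in BMH-21 libraries. The summit lay within 23 bp of the transcription start in all 4 libraries, and the printed promoter was covered over all 250 bases in each. This peak was thus called at the same place under both treatments. In the authors' lists its fold over local background was 5.59 and 5.40 in mock against 6.39 and 6.37 in BMH-21 libraries, values that are not normalised between lists. The fragments at its summit went the other way, with 96 and 98 in mock against 67 and 60 in BMH-21 libraries. The local background was 16.4 and 17.3 in mock against 9.64 and 8.58 in BMH-21 libraries. A second peak near the 3′ end of Fos was called in both mock libraries, with folds of 2.85 and 2.75, and in neither BMH-21 library. Further out, a region at chr12:85485524-85486396, past the 3′ end, was in all 4 lists with folds of 9.26, 10.0, 10.9 and 10.7, the highest at any Fos peak.

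Fosb (chr7:19302696-19310118), whose product is a second FOS-type AP-1 subunit, had a small promoter peak of 501 and 474 bp in mock against 498 and 481 bp in BMH-21 libraries. The groups overlap, and the summed gene-end width was the least changed of the 7 retained genes, with a ratio of BMH-21 to mock of 1.00. The number of peaks within 10 kb was 6 and 7 in mock against 7 and 5 in BMH-21 libraries. Beyond the promoter, a peak inside Fosb was in all 4 lists, with highest folds, in the order mock 1, mock 2, BMH-21 1 and BMH-21 2, of 3.58, 3.16, 7.66 and 7.55. At a region upstream of the promoter, chr7:19319421-19320370, folds were 5.88, 6.47, 10.8 and 11.8. Each fold is a value of its own list. Fosb also had 2 of the 3 regions that were BMH-21-only. One lay within 1 kb of an end of Rtn2 and the other within 1 kb of an end of Gm26802.

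Among the JUN family, Jun (chr4:95049036-95052222), the main partner of FOS, had 1 wide peak over its promoter in every library, in a region that also lies at an end of Junos. The peak measured 2756 and 2829 bp in mock against 1802 and 1752 bp in BMH-21 libraries. Summits lay at -379 and -377 bp from the start in mock against at -156 and -69 bp in BMH-21 libraries, and the printed promoter was covered over all 250 bases in each library. Inside the gene, 1732 and 1745 bp were covered in mock against 1045 and 1086 bp in BMH-21 libraries. The numbers of peaks within 10 kb overlapped, at 1 and 3 in mock against 2 and 1 in BMH-21 libraries.

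Junb (chr8:84976909-84978748), a JUN protein often found as a weaker activator than JUN, kept a peak on the promoter but hardly any inside the gene. In mock libraries a peak of 1667 and 1688 bp ran from the promoter into the gene, with the summit at 905 bp inside. In BMH-21 libraries the peak there measured 278 and 303 bp and sat on the promoter, covering all 250 bases printed above, against 193 and 188 bases in mock. Inside the gene, 1474 and 1500 bp were covered in mock against 16 and 28 bp in BMH-21 libraries. The strongest gene-end peak in BMH-21 libraries was an upstream one, with its summit at -1351 and -1348 bp. Its region, chr8:84979557-84980557, was in all 4 lists. In mock libraries the highest peak there had its summit at -1584 and -1582 bp and lay outside the 1 kb window. It held 138 and 129 fragments at the summit in mock, against 114 and 106 in BMH-21 libraries. A region near Prdx2 and Rnaseh2a, past the 3′ end of Junb, was in all 4 lists.

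Jund (chr8:70697739-70700616), the JUN family gene with the most constant expression in many tissues, carried its peak inside the gene and not over the annotated start. None of the 250 bases before that start were covered in any library. The peak measured 1967 and 1969 bp in mock against 1026 and 942 bp in BMH-21 libraries, and the difference lay on the 3′ side, since its first base was at 599 and 598 bp into the gene in mock and at 559 and 549 bp in BMH-21 libraries. Summit pileups, the fragments at the highest point, were 149 and 150 in mock against 146 and 156 in BMH-21 libraries, so the ranges of the groups overlap. Both regions upstream of Jund held by the mock libraries were absent from the BMH-21 lists, one of them within 1 kb of Gm39191. With a gene-end window of 500 bp in place of 1 kb, Jund became mock-only.

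Egr1 (chromosome 18) encodes a zinc finger factor that binds GC-rich sites. One peak of 2130 and 2159 bp over its lower-coordinate end in mock libraries was called as 2 peaks in each BMH-21 library, the stronger of 1164 and 1027 bp. The summit lay 175 and 176 bp inside that end in mock libraries. In BMH-21 libraries the summit of the stronger peak lay 578 and 608 bp outside it. The number of Egr1 peaks within 10 kb was accordingly higher in BMH-21 libraries (2 and 2) than in mock (1 and 1). The bases covered inside the gene differed the other way, with 741 and 775 in mock against 232 and 227 in BMH-21 libraries.

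Ier2 (chr8:84661331-84662852) had 1 peak of 1085 and 1126 bp inside the gene in mock libraries, with summit pileups of 85 and 73 fragments, and none in BMH-21 libraries. Of the 8 regions within 10 kb of Ier2, 4 were mock-only, that peak and a region near Nacc1 among them. A region at chr8:84663976-84664441, past the gene's higher-coordinate end, was called only in the BMH-21 lists, with folds of 6.03 and 6.13 and pileups of 96 and 95, and next to it chr8:84664688-84665444 was called in all 4. With a window of 2.5 kb in place of 1 kb, these peaks counted for Ier2, and it was no longer mock-only.

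Atf3 (chr1:191170296-191183333), a stress-induced factor that pairs with JUN, had a much smaller promoter peak in the BMH-21 lists. The peak measured 1510 and 1543 bp in mock against 213 and 431 bp in BMH-21 libraries. The ratio of summed gene-end width was 0.211, the lowest of the 7 retained genes on that measure. Summit pileups were 99 and 91 in mock against 24 and 27 in BMH-21 libraries. The printed promoter was covered over 250 and 250 bases in mock, and over 0 and 171 bases in BMH-21 libraries. The groups do not overlap in any of these values. A flanking region just upstream was mock-only, while one near Fam71a was called in mock 1 alone.

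Myc (chr15:61985341-61990361), the E-box factor, had 3 regions within 10 kb, all of them mock-only. The strongest gene-end peak had summit pileups of 61 and 66 fragments and folds of 4.10 and 4.50 in mock, and a wider region lay inside the gene. Myc was the one member with no peak within 10 kb in either BMH-21 library, as were 7.78% of the protein-coding genes that had one in both mock lists. In lists cut to equal length by fold, Myc had no gene-end peak in any library, so its mock-only class is not seen there.

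Of the 5 matched promoter windows covered in both mock libraries, none was uncovered in both BMH-21 libraries, against 11.1% of such windows over protein-coding genes. All 9 members had fewer bases covered inside the gene in both BMH-21 than in both mock libraries, with a median ratio of 0.303. This measure was chosen after seeing the data. Among 5180 protein-coding genes in the same range of length and covered in both mock libraries, 72.5% had fewer, with a median ratio of 0.606. Among the 3119 of these that were covered over at least 758 bp in mock, as the members were, the median ratio was 0.505. Within 1 kb outside the gene, 5 of the 7 members covered there in mock had fewer bases in both BMH-21 libraries, against 44.5% of genes, and the median ratio was 0.819 against 0.942. Fos differed the other way, with 427 and 436 bp in mock against 493 and 474 bp in BMH-21 libraries. With lists cut to equal length by fold, 3 members (Fos, Ier2 and Atf3) were still covered inside in both mock libraries. All 3 had fewer bases in BMH-21, against 51.1% of genes. Fosb, Jun, Junb, Egr1 and Myc were then at 0 in both mock libraries. In BMH-21 libraries Fosb kept 1028 and 506 bp, Jun 1045 and 1086, Junb 16 and 28, and Egr1 232 and 227. These members thus differed the other way in that cut. Jund had 1967 and 0 bp in mock against 1026 and 942 in BMH-21 libraries, and Myc had none in any. By −log10 q, 8 of 9 members had fewer bases inside, Fosb being the exception, against 60.8% of genes.

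**Figure D2:**
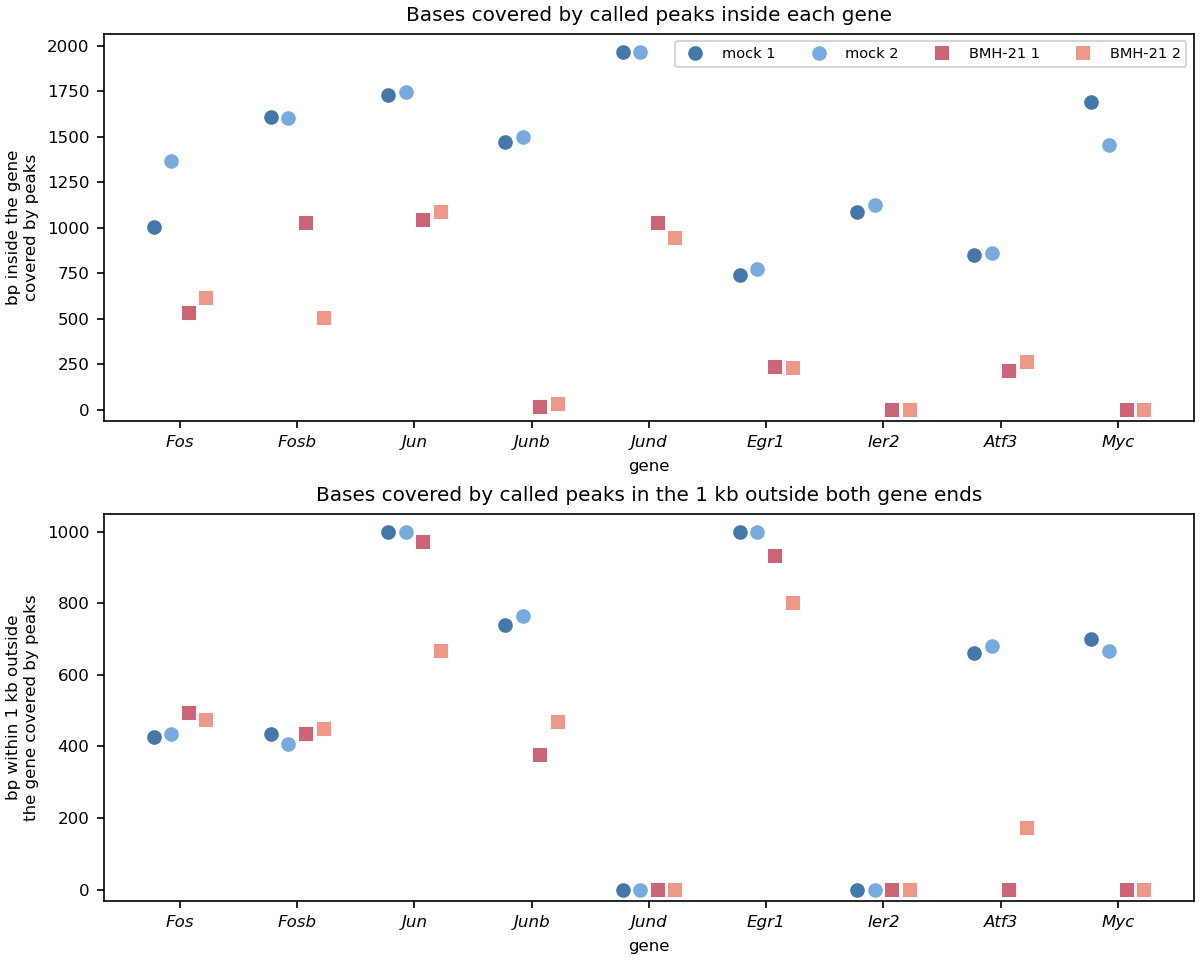
Points give, for each gene and library, the bases covered by called peaks inside the gene (top) and within 1 kb outside both gene ends (bottom), in bp; circles are mock and squares BMH-21 libraries. Inside the gene the BMH-21 points lie below the mock points in 9 of 9 genes, whereas outside the gene those of Fos are higher and those of Fosb do not lie below mock.

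Summed gene-end peak width was lower in both BMH-21 libraries in 6 of the 7 retained members, all but Fosb, against 55.4% of 12679 protein-coding genes. The median ratio was 0.536 in the members and 0.900 over those genes. Some members' mock peaks were wide: Jun, Junb, Jund and Egr1 lay at the 91.1 to 98.8 percentile of gene-end width in the mock lists. Fos and Atf3 lay at the 73.6 to 78.3 percentile, Ier2 at 50.1 and 53.3, Myc at 49.1 and 24.7, and Fosb at 10.3 and 9.83. Among genes with a mean mock width of at least 2000 bp, a limit chosen after seeing the data, the median ratio was 0.536 for 3 members and 0.575 for 1186 protein-coding genes. The 3 members are Jun, Junb and Egr1, whose median ratio was thus near that of other genes with wide peaks. This limit leaves out Fos, Fosb, Jund (mean mock width 1968 bp, ratio 0.5) and Atf3 (1526.5 bp, ratio 0.211). Among 12038 protein-coding genes with a mean mock width in the range of the 7 retained members, the median ratio was 0.897. Of these, 56.4% were narrower in both BMH-21 libraries. The 10th percentile of their ratio was 0.476, and Atf3 alone among the members lay below it.

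Peaks within 10 kb totalled 33 and 40 over the members in mock against 23 and 21 in BMH-21 libraries. Fewer were called in both BMH-21 libraries at 6 genes. Fos had 4 and 5 in mock against 3 and 3 in BMH-21 libraries, Junb 6 and 8 against 4 and 5, and Jund 3 and 3 against 1 and 1. Ier2 had 6 and 7 against 3 and 3, Atf3 3 and 2 against 1 and 1, and Myc 3 and 4 against 0 and 0. Each of these differences, and that of Egr1 in the other direction, reached the smallest two-sided p that an exact permutation test of 2 against 2 libraries allows, 0.333, so none could pass 0.05. Over protein-coding genes, 51.5% had fewer and 2.09% had more in both BMH-21 libraries, and the median difference was -1 over those genes and -1.5 over the members. These shares are over all 21887 protein-coding genes, of which 17716 had a peak within 10 kb in both mock lists, as all 9 members did. Genes without a mock peak cannot have fewer, so the shares are not over like genes. Counts of 6 with fewer and 1 with more among 9 members are too small to set apart from them. In lists of equal length by fold, the difference changed sign for Fos, Fosb, Jun, Junb, Jund and Ier2. It was 0 at Atf3 and Myc and 2 at Egr1, so no member then had fewer peaks on average in BMH-21 libraries.

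**Figure D3:**
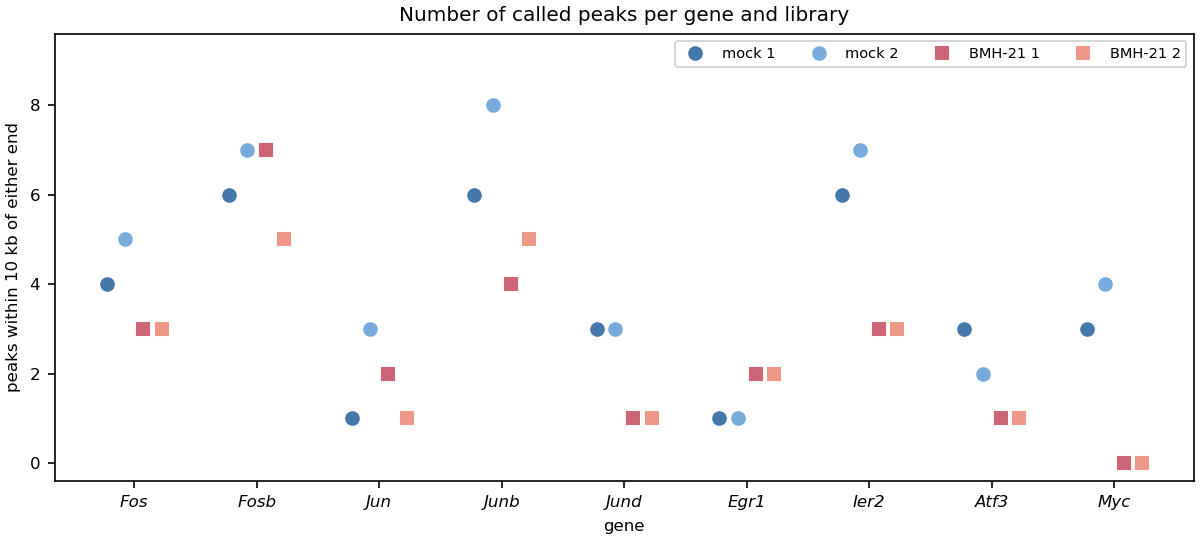
The number of called peaks within 10 kb of either gene end is shown for each gene and library, with circles for mock and squares for BMH-21. The groups do not overlap at Fos, Junb, Jund, Ier2, Atf3 and Myc, where BMH-21 is lower, nor at Egr1, where it is higher.

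Merged over the 4 lists, 44 regions lay within 10 kb of the members. They comprised 16 in all libraries, 14 mock-only, 3 BMH-21-only and 11 in another pattern. Of the 30 held by both mock libraries, 46.7% were mock-only, against 49.8% over regions near protein-coding genes. Of the 19 held by both BMH-21 libraries, 15.8% were BMH-21-only, against 10.8%. Both shares are near the background. With lists of equal length by fold, 2 regions were mock-only and 14 BMH-21-only. Without BMH-21 replicate 2, there were 5 BMH-21-only regions, and without mock replicate 1, 21 were mock-only.

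The fold and the height of the members' peaks did not differ between treatments in the same direction at every member. In the mock lists all 9 members' strongest gene-end peaks had a fold at the 3.22 to 36.5 percentile of protein-coding gene-end peaks, although Jun, Junb, Jund and Egr1 were among the widest. The fold divides the summit pileup by the caller's local background, so both parts were recovered for the 7 retained genes, a comparison chosen after seeing the data and not normalised between lists. The pileup was lower in both BMH-21 libraries in 4 of 7 genes (Fos, Junb, Egr1 and Atf3), against 51.2% of 12679 protein-coding genes, and higher in Jun. At Jun it was 126 and 126 fragments in mock against 130 and 137 in BMH-21 libraries. The local background was lower in both BMH-21 libraries in 7 of 7, against 44.8% of genes, with a median ratio of 0.625 against 0.990. At Jun it was 29.2 and 29.5 in mock against 19.1 and 19.1 in BMH-21 libraries. The fold itself was higher in both BMH-21 lists in 6 of 7, all but Atf3, against 30.7% of genes, with a median ratio of 1.40 against 0.916. None of these comparisons of pileup, local background and fold was limited to genes with peaks of like width. At Junb the peak compared is not the same one in both groups. At Egr1 and Jun the summits compared lay at different places in mock and BMH-21 libraries, as given above. At Jund they lay at 1316 and 1302 bp into the gene in mock against 997 and 1052 bp in BMH-21 libraries. The lowest fold kept in the lists of equal length was 4.49 and 4.67 in mock but 1.55 and 2.94 in BMH-21 libraries, and the mock folds of Fosb, Jun, Junb, Egr1 and Myc lay below it, as did that of Jund in mock 2.

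**Figure D4:**
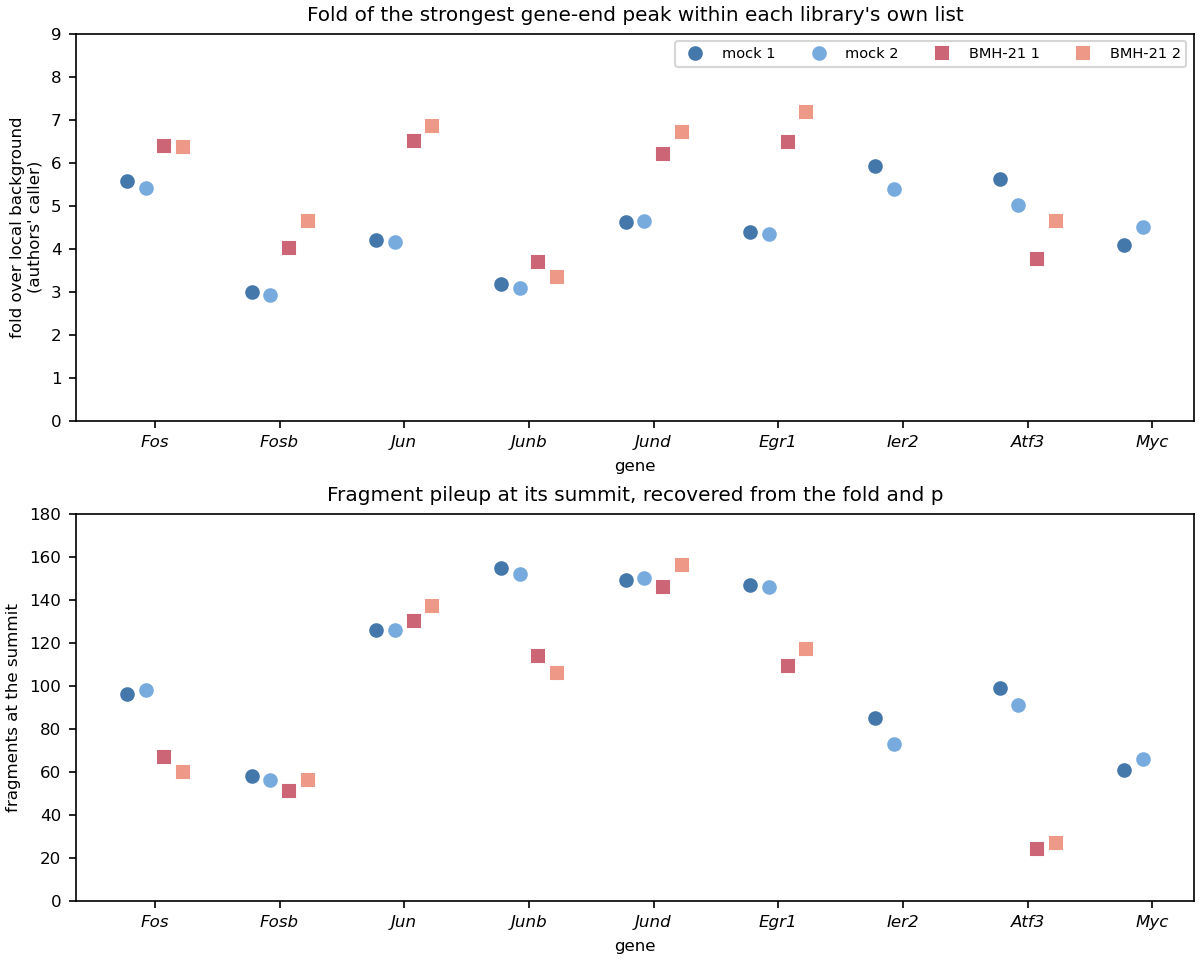
For each gene's strongest gene-end peak, the top panel gives the authors' fold over local background and the bottom panel the fragments at the summit, recovered from the fold and p; circles are mock and squares BMH-21 libraries, and no point is drawn where no peak was called. Jun, Jund and Egr1 have higher folds in the BMH-21 lists, while their pileups are higher at Jun, overlap at Jund and are lower at Egr1. The summits of these genes lay at different places in mock and BMH-21 libraries.

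Gene-end peaks were also counted in 4 lists of related genes. Of all protein-coding genes in both mock lists, 84.3% were in both BMH-21 lists. All 14 other AP-1 and bZIP partner genes had a gene-end peak in every library. Of 33 upstream regulators, 31 were in both mock lists, 30 had one in all libraries and none was mock-only, and these included Srf, Creb1, Crem and Mapk3. Of 34 other immediate early genes, 32 were in both mock lists, 27 had one in all libraries and 3 were mock-only: Ccn2, which encodes a secreted matrix protein, Ptgs2, the inducible cyclooxygenase, and Zfp36, an RNA-binding protein that promotes mRNA decay. Ccn2 had the highest folds of the 3, at 7.36 and 7.87 in the mock lists. In the Myc network, all 13 matched genes were in both mock lists, 11 had a peak in all libraries, Max among them, and Mxi1, which encodes a MAX partner that opposes MYC, was mock-only. No gene of these 4 lists was BMH-21-only. Of genes held by both mock libraries, the mock-only share was 9.38% in the other immediate early genes and 7.69% in the Myc network, against the 11.5% given above. With 27 of 32 and 11 of 13 genes held in all libraries, these lists were near the share of all protein-coding genes.

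**Figure D5:**
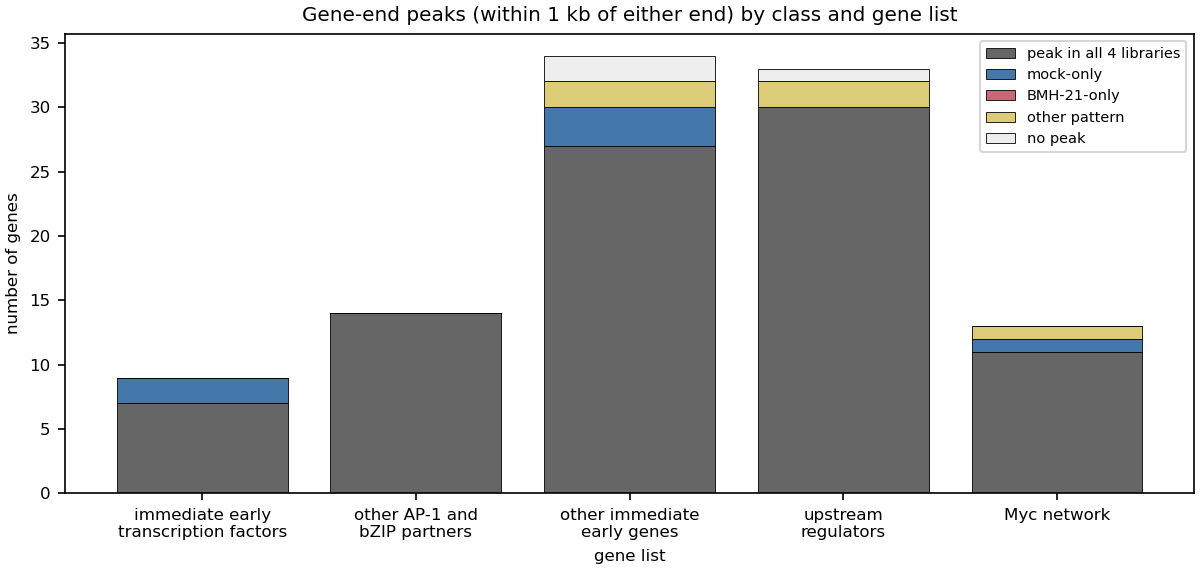
Stacked bars give the number of genes per list with a gene-end peak in all 4 libraries, in mock only, in BMH-21 only, in another pattern or in none. Mock-only genes are 2 of 9 immediate early transcription factors, 3 of 34 other immediate early genes and 1 of 13 Myc network genes.

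Markers of other testis cells were counted in the same contrast, to be read against the 11.5% of protein-coding genes in both mock lists that were mock-only. That share was 62.5% of 8 leukocyte markers, 36.4% of 11 Sertoli, 42.9% of 7 Leydig and peritubular, 50% of 4 endothelial, 50% of 6 spermatid and 22.2% of 9 spermatogonial markers. The lists are small, and the spermatogonial share is that of Ier2 and Myc among the members. Of 12 leukocyte markers, 8 and 9 had a gene-end peak in mock against 3 and 3 in BMH-21 libraries. Csf1r, C1qa, C1qc, Tyrobp and Fcer1g were mock-only, Cd68, Cd14 and Laptm5 were in all 4, and Ptprc, Adgre1 and Cx3cr1 had no peak in any library. Of 13 Sertoli cell markers, 11 and 12 had one in mock against 6 and 7 in BMH-21 libraries, with Gata1, Kitl, Inha and Sox8 mock-only, Rhox5 BMH-21-only, and Wt1, Amh, Dhh and Cldn11 in all 4. Leydig and peritubular markers numbered 7 and 7 of 11 in mock against 4 and 4 in BMH-21 libraries, with Star, Nr5a1 and Tcf21 mock-only and Cyp11a1, Insl3, Lhcgr and Myh11 in all 4. For endothelial cells the numbers were 4 and 4 of 7 in mock against 2 and 2 in BMH-21 libraries, with Cdh5 and Tie1 mock-only, Kdr and Esam in all 4, and Pecam1, Tek and Vwf without a peak in any library. Among germ cells, spermatogonial markers numbered 10 and 10 of 13 in mock against 7 and 8 in BMH-21 libraries, with Dmrt1 and Ccnd2 mock-only and Zbtb16, Kit, Uchl1, Ret, Sohlh2 and Lin28a in all 4. Spermatid markers numbered 7 and 8 of 12 in mock against 3 and 4 in BMH-21 libraries, with Prm1, Prm2 and Tssk2 mock-only and Tssk6, Spaca1 and Odf1 in all 4. The part of other cell types in the differences at Ier2, Myc, Atf3 and the gene interiors was not tested.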

How the data were processed

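Peak lists of 4 ATAC-seq libraries (2 mock, 2 BMH-21) were used, each called on its own library. Per the submitters' processing notes, MACS2 2.1.0, Bowtie2, fastp, deepTools and bedtools were used, and 2 builds, mm10 and mm39, are named. Their roles, calling parameters, duplicate removal and any shift of read ends are not given in the sources used here. Coordinates were taken as mm10, since 61.0 to 70.7% of protein-coding genes had a gene-end peak, against 14.8 to 29.4% after a 50 kb shift. The deposited fold is a ratio of summit pileup to local background, the −log10 q and −log10 p that the authors deposited give its significance within 1 list, and the deposited score entered no result. None is normalised between libraries.

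A peak counted for a gene when it overlapped, by at least 1 bp, the window within 1 kb (gene end) or 10 kb of either end. Overlapping peaks were merged into regions. Mock-only means held by both mock lists and no BMH-21 list, BMH-21-only the reverse. From each fold and p, pileup and local background were solved by the Poisson relation, to within 0.0008 in −log10 p. Peak numbers were compared by exact two-sided permutation over libraries (Python 3.11.15, pandas 2.3.3, scipy 1.17.1). Overlap and merging were tested on simulated data. All members are named. From the other lists, the genes of either class were named (at most 6 per list and class), plus Srf, Creb1, Crem, Max and Mapk3, and neighbours within 1 kb of a member's region; 1 further gene of that rule is not reported here. The members, the lists and the comparisons were chosen with earlier results of these data known. Alternatives were a stricter threshold, lists of equal length, 200 bp summit windows, other windows and overlaps, the transcription start only, leaving out each library, and a replicate block. One listed symbol, Miz1, was not matched.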

Additional observations from a re-analysis of the deposited data

How the results depend on the processing

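Replicate numbers are shared between treatments, but no label says that they pair the libraries, and across protein-coding genes the differences between replicates 1 and 2 in mock and in BMH-21 had a correlation of 0.0048. With the replicate number as a block, chosen after seeing the data, 6 members had fewer and 1 had more peaks in both pairs, and 9 had fewer bases covered inside. The exact sign-flip p cannot go below 0.5 with 2 pairs. With −log10 q of at least 5, all gene, region and interior counts were as reported. With lists of equal length by fold, gene-end peaks were in all libraries at 2 members, in mock only at 1 and in BMH-21 only at 4. Regions numbered 5, 2 and 14 in that order. Interiors were less covered in 3, the only members then covered inside in both mock libraries. Those of Fosb, Jun, Junb and Egr1 were then covered in the BMH-21 libraries alone. The peak number difference, BMH-21 minus mock, then turned to 1 at Fos, 5 at Fosb, 0.5 at Jun, 3 at Junb, 0.5 at Jund and 1 at Ier2. These are 6 of 36 alternative values, and all 6 came from this cut. The other settings left the lists unequal in length. With equal lengths the difference was 2 at Egr1 and 0 at Atf3 and Myc, so no member had fewer peaks on average in BMH-21 libraries. In that cut the members' low mock folds take their peaks out of the mock lists. By −log10 q, a cut chosen after seeing the data, 1 member was BMH-21-only, and 7 regions were mock-only and 5 BMH-21-only.

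With summit windows, 1 member (Jund) was BMH-21-only, 9 regions were in all libraries, 20 mock-only and 10 BMH-21-only. With 50% overlap, 9 regions were in all libraries. Mock-only members numbered 1 with a 2.5 kb window and 0 with the transcription start only, which covers 6 genes and neither Ier2 nor Myc. Mock-only regions numbered 8 within 5 kb and 32 within 20 kb, and BMH-21-only regions 5 within 20 kb. Leaving out each library gave 3 to 5 BMH-21-only and 14 to 21 mock-only regions, with 21 when mock replicate 1 was left out.

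Several of these classes and differences thus depend on how the lists are matched. Under both equal-length cuts Ier2 was mock-only, and Fos, Ier2 and Atf3 were less covered inside. Under the cut by fold, Fosb, Jun, Junb and Egr1 were more covered inside in BMH-21 libraries. With 2 libraries per treatment no test can reach 0.05. Depth is known only through the recovered background, and fold, q and threshold were set within each library.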
